A study of Rattus norvegicus with 10 samples.

Results

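The miR-129 family of rat hippocampus was described here from 3 of the 765 mature miRNAs in the deposited table, picked by name: miR-129-5p, miR-129-1-3p and miR-129-2-3p. They come from 2 hairpins, Mir129-1 and Mir129-2. Each hairpin gives a 5p arm and a 3p arm, and the 5p arms have the same sequence, so the table lists them as 1 name. The samples were hippocampi of Wistar rats of 10 weeks. In the 2-VO group of 5 libraries both common carotid arteries had been occluded, and the other 5 libraries were from sham-operated rats. The series treats 2-VO as a model of chronic cerebral hypoperfusion, and the labels do not say how long after the operation the tissue was taken. The libraries were made from whole hippocampal tissue, so fewer cells of a type and less of a miRNA per cell cannot be told apart.

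A miRNA hairpin is cut by Dicer into a short duplex. An Argonaute protein keeps one arm as the guide, and the other arm is usually degraded. The guide finds its target mRNAs mainly through its seed, bases 2 to 8 from the 5′ end, and lowers their translation and stability. The miR-129 family is enriched in brain. In rat hippocampal neurons miR-129-5p is known to repress the potassium channel Kv1.1 and to take part in the scaling down of excitatory synapses, with the calcium pump Atp2b4 and doublecortin among its targets. For the 3p arm, repression of the centriole protein CP110 during cilium assembly is known from human cells.

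The mature sequences, from RefSeq on build GRCr8, are shown with the seed in capitals because the names and values below rest on how the 3 molecules differ.
miR-129-5p: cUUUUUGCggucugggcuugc
miR-129-1-3p: aAGCCCUUaccccaaaaag
miR-129-2-3p: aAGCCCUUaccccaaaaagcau
The 5p arm has 21 bases, of which 9 are U and 0 are A. Its seed UUUUUGC was held by no other of the 690 listed miRNAs that have a RefSeq sequence. The 3p arms share the seed AGCCCUU, and among those 690 only these 2 had it. miR-129-1-3p, with 19 bases, is the start of miR-129-2-3p, which is 3 bases longer. Among the 690 there were 5 pairs in which 1 sequence lies inside the other or equals it.

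The hairpins are shown with the arms in capitals.
Mir129-1: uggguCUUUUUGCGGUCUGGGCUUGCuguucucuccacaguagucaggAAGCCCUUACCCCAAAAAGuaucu
Mir129-2: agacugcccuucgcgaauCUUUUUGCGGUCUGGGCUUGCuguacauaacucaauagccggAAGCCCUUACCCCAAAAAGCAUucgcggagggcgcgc
Mir129-1 lies on the plus strand at chr4:58589711-58589782 (GRCr8), between the protein-coding genes Snd1 and Lep. The long noncoding RNA gene LOC120102250 overlaps it. Mir129-2 lies on the minus strand at chr3:100657390-100657486, between Hsd17b12 and Ttc17, and no other annotated gene overlaps it. The loops between the arms have 22 bases in Mir129-1 and 21 in Mir129-2 and matched at 13 of 22 aligned positions. In the predicted fold of each hairpin 16 of the 21 bases of the 5p arm paired with the annotated 3p arm.

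Over the 22 bases from the start of the 3p arm, the hairpins differ by the single substitution C20U, counted from 1 at the 5′ end of the 3p arm with the base of Mir129-2 first. It is the capital in the windows below, which show which part of a read tells the hairpins apart.
Mir129-1: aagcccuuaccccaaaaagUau
Mir129-2: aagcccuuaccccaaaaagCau
A 3p read of 19 bases or fewer from this start matches both hairpins, and the labels do not say to which name such reads were assigned. The table holds 4 other pairs with 1 sequence equal to or inside the other. Where both names have the same sequence (let-7a-1-3p with let-7c-2-3p, and miR-3084a-3p with miR-3084d), the RPM values were equal in 10 of 10 libraries. In the pairs of miR-299a-3p with miR-299b-3p and of miR-3084a-5p with miR-3084c-5p, 1 sequence lies inside the other. There miR-299b-3p and miR-3084c-5p were listed at 0 in each library, while neither 3p name of miR-129 was. Values of miR-129-1-3p and miR-129-2-3p are therefore uncertain in how they divide the 3p reads. The 5p reads cannot be divided between the hairpins at all.

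Levels are in RPM, a read count relative to the library's divisor, which also counts reads outside the table. The divisor was inferred as the number that turns a library's RPM into whole reads. A multiple of it could fit as well. It was 13095384 to 13839174 reads in 2-VO libraries and 13032805 to 13850400 in sham libraries. The listed miRNAs made up 60.3% to 78.0% of it in 2-VO and 66.4% to 77.0% in sham libraries. Library 2-VO replicate 3 stood apart. Its values lay a median of 0.234 (log2) from the median of all libraries per miRNA, against 0.0996 to 0.161 in the other 9, and it had the lowest listed share. The group comparisons of the members and of their ratios were also run without it. Spreads, likeness, sums, shares and list values were taken only with it included. The 20 neuron-enriched miRNAs chosen as tissue markers were all detected, with a summed level of 97159 to 130319 RPM in 2-VO and 112896 to 129111 RPM in sham libraries.

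miR-129-5p was the abundant member and ranked 26 of 765 by mean RPM. It stood at 5947, 6123, 7140, 4929 and 5808 RPM in 2-VO replicates 3, 5, 6, 7 and 8, and at 5983, 5804, 5335, 5720 and 6343 RPM in sham replicates 1 to 5. The highest and the lowest library were both 2-VO libraries, and the sham values lay between them. The means were 5989 ± 791 RPM in 2-VO and 5837 ± 369 RPM in sham libraries (SD, n = 5 each).

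miR-129-2-3p ranked 139. It stood at 162, 349, 237, 246 and 226 RPM in 2-VO replicates 3, 5, 6, 7 and 8, and at 286, 254, 234, 277 and 242 RPM in sham replicates 1 to 5. Again both extremes were 2-VO libraries, replicate 5 at the top and replicate 3 at the bottom, while the sham libraries lay close together. The means were 244 ± 67.3 RPM in 2-VO and 259 ± 22.4 RPM in sham libraries.

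miR-129-1-3p ranked 170. It stood at 126, 157, 133, 129.7 and 127 RPM in 2-VO replicates 3, 5, 6, 7 and 8, and at 206, 134, 151, 168 and 132 RPM in sham replicates 1 to 5. Here 4 of the 2-VO libraries lay within a narrow band with replicate 5 above it, and sham replicate 1 was the highest of all 10. The ranges overlapped from 132 to 157 RPM. For 0 of the 3 members did the groups fail to overlap, as they did for 3 of the 474 miRNAs tested (0.633%). The means were 134 ± 12.7 RPM in 2-VO and 158 ± 30.5 RPM in sham libraries.

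**Figure D1:**
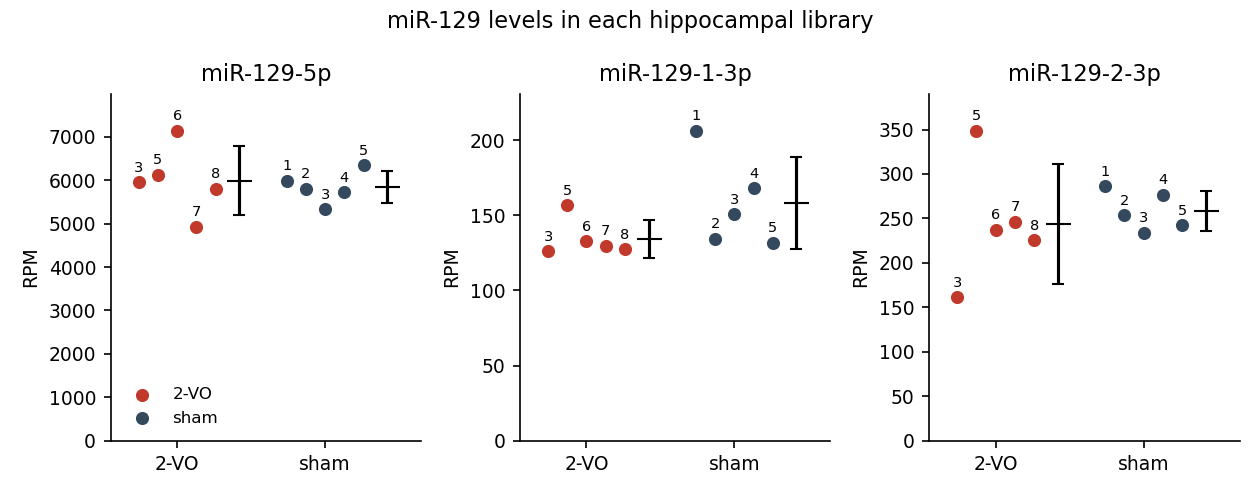
RPM of each member in each library, 2-VO left of sham, with the replicate number above each point and the mean ± SD (n = 5) as a bar beside each group. The ranges of the groups overlap for all 3 members, and miR-129-2-3p runs from 162 to 349 RPM within the 2-VO group.

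The order of the members was the same in 10 of 10 libraries, with miR-129-5p above miR-129-2-3p and miR-129-2-3p above miR-129-1-3p. The 5p arm was far outside the range of both 3p arms. The 3p arms were neighbours whose ranges met, since the lowest miR-129-2-3p value (162 RPM) lay below the highest miR-129-1-3p value (206 RPM). These are levels of different molecules, and how each ligates and amplifies was not measured, so a ratio between names need not be a ratio of molecules in the tissue.

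The 3 members differed in how steady they were. The within-group SD on the log2(RPM + 1) scale was 0.150 for miR-129-5p, 0.208 for miR-129-1-3p and 0.292 for miR-129-2-3p, beside a median of 0.208 over the 474 miRNAs kept for testing (a mean of at least 1 RPM). Of the 21 miRNAs within 2-fold of the level of miR-129-5p, 4 had a lower SD. For miR-129-2-3p 67 of 79 did, and for miR-129-1-3p 47 of 84. At the inferred divisors the values rested on 65605 to 93931 reads for miR-129-5p, 1716 to 2856 for miR-129-1-3p and 2216 to 4566 for miR-129-2-3p. At the lowest of these, counting error alone would be 2.41% of the value for miR-129-1-3p and 2.12% for miR-129-2-3p, though PCR copies of 1 molecule are not independent reads. The measured coefficients of variation were 9.41% in 2-VO and 19.3% in sham libraries for miR-129-1-3p, and 27.6% and 8.66% for miR-129-2-3p.

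The comparison of 2-VO with sham asks whether occlusion of the carotid arteries was followed by a different level of each miRNA. None of the 3 members passed, and none of the 474 miRNAs did (0%, limma's moderated test on log2(RPM + 1) with Benjamini-Hochberg adjustment over all 474, smallest adjusted p = 0.44). At an unadjusted p under 0.05 there were 24 miRNAs (5.06%) and 0 members. Fold changes on this scale understate the change of low miRNAs.

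The fold change of miR-129-5p was 0.029 on the log2 scale with a SE of 0.10 (limma adjusted p = 0.96). Its 95% interval ran from -0.19 to 0.25, or 0.879-fold to 1.19-fold. The sign turned without 2-VO replicate 6 (-0.037) or sham replicate 3 (-0.0025), so no direction is given for it.

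For miR-129-2-3p the log2 fold change was -0.12 with a SE of 0.16 (limma adjusted p = 0.93) and an interval from -0.46 to 0.22, or 0.725-fold to 1.16-fold. It was 0.015 without 2-VO replicate 3, the library that stood apart, and -0.26 without 2-VO replicate 5. The value thus turned on which of the 2 extreme 2-VO libraries was kept.

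For miR-129-1-3p the fold change was -0.22 on the log2 scale with a SE of 0.13 (limma adjusted p = 0.77). The interval ran from -0.49 to 0.058, or 0.711-fold to 1.04-fold. Permuting the libraries exactly between the groups gave an unadjusted two-sided p of 0.12 (n = 5 each), where 0.0079 is the smallest possible. A fold change of this size in either direction was found for 75 of the 474 miRNAs (15.8%). Without sham replicate 1, the highest library, it was -0.12, while without 2-VO replicate 3 it was -0.20.

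Both 3p arms had values below 0, as did 295 of the 474 miRNAs (62.2%), and the median of all was -0.051. With the values scaled to the listed miRNA reads that median was 0.0006 and the share below 0 was 49.4%. The members then stood at 0.087 (miR-129-5p), -0.16 (miR-129-1-3p) and -0.065 (miR-129-2-3p), so the 3p arms kept their sign. With TMM factors the share below 0 was 50.6%.

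**Figure D2:**
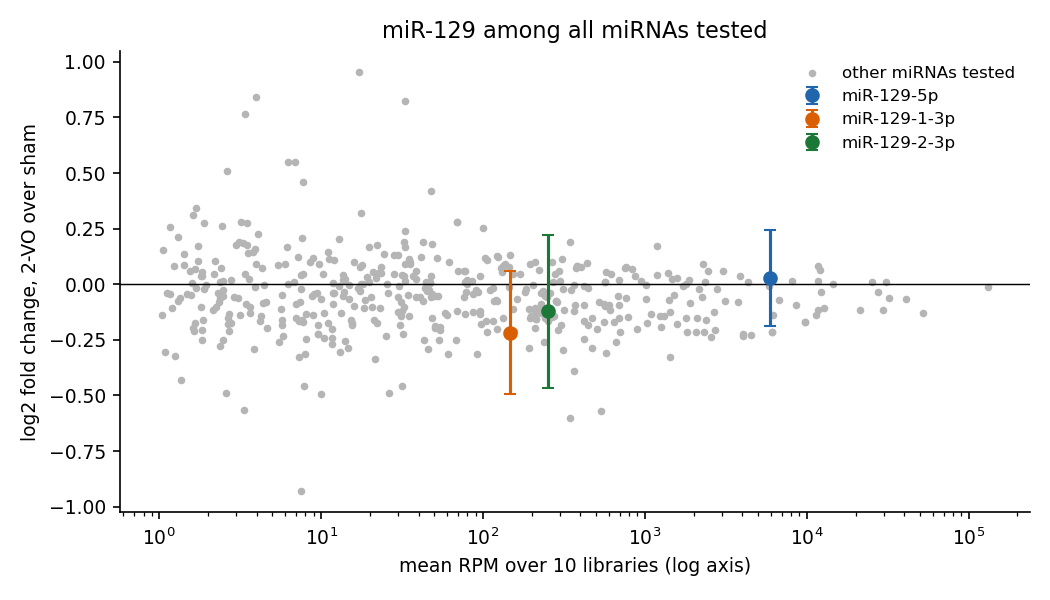
Log2 fold change of 2-VO over sham (vertical) against mean RPM over the 10 libraries (horizontal, log axis) for the 474 miRNAs tested, in grey, with the 3 members in colour and their 95% intervals as bars. All 3 intervals include 0, and the point of miR-129-1-3p lies lowest of them at -0.22.

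Ratios within a library do not depend on its divisor, so they were used to ask whether the arms of the hairpins differed unequally. miR-129-5p over miR-129-1-3p was 47.2, 39.1, 53.9, 38.0 and 45.7 in 2-VO replicates 3, 5, 6, 7 and 8, and 29.0, 43.2, 35.4, 34.1 and 48.2 in sham replicates 1 to 5. The highest 2-VO and the lowest sham library gave the extremes, with 3 sham libraries below all 2-VO libraries and 2 among them. The log2 ratio of (RPM + 1) was 5.46 ± 0.207 in 2-VO and 5.21 ± 0.288 in sham libraries (SD, n = 5). The difference was 0.25 with a SE of 0.14 (limma adjusted p = 0.56 over 159 ratios). Without sham replicate 1 the difference was 0.16.

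miR-129-5p over miR-129-2-3p was 36.8, 17.6, 30.1, 20.0 and 25.7 in 2-VO replicates 3, 5, 6, 7 and 8, and 20.9, 22.9, 22.8, 20.7 and 26.2 in sham replicates 1 to 5. The 2-VO libraries covered more than the whole sham range at both ends. The log2 ratio was 4.65 ± 0.431 in 2-VO and 4.49 ± 0.137 in sham libraries. The difference was 0.15 with a SE of 0.17 (limma adjusted p = 0.79), or 0.015 without 2-VO replicate 3 and 0.28 without 2-VO replicate 5. Of the 159 ratios of a 5p to a 3p arm 0 passed (0%, limma, smallest adjusted p = 0.14), with 16 at an unadjusted p under 0.05 (10.1%), and 88 were higher in 2-VO (55.3%). The groups did not overlap for 2 of the 159 (1.26%), neither of them a miR-129 ratio.

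The 3p arms were then set against each other. miR-129-1-3p over miR-129-2-3p was 0.78, 0.449, 0.559, 0.526 and 0.563 in 2-VO replicates 3, 5, 6, 7 and 8, and 0.72, 0.529, 0.644, 0.607 and 0.544 in sham replicates 1 to 5. Replicate 3 of 2-VO was the highest and replicate 5 the lowest of all 10, so the 2 libraries at the ends of the miR-129-2-3p range were also at the ends of this ratio, which has it as the divisor. The log2 ratio was -0.82 ± 0.289 in 2-VO and -0.72 ± 0.181 in sham libraries. The difference was -0.095 with a SE of 0.13 (limma adjusted p = 0.65 over 12 ratios of this kind; exact two-sided permutation test, unadjusted p = 0.54, n = 5 each). Its 95% interval ran from -0.37 to 0.18, or 0.772-fold to 1.14-fold. It was -0.21 without 2-VO replicate 3 and -0.012 without 2-VO replicate 5.

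**Figure D3:**
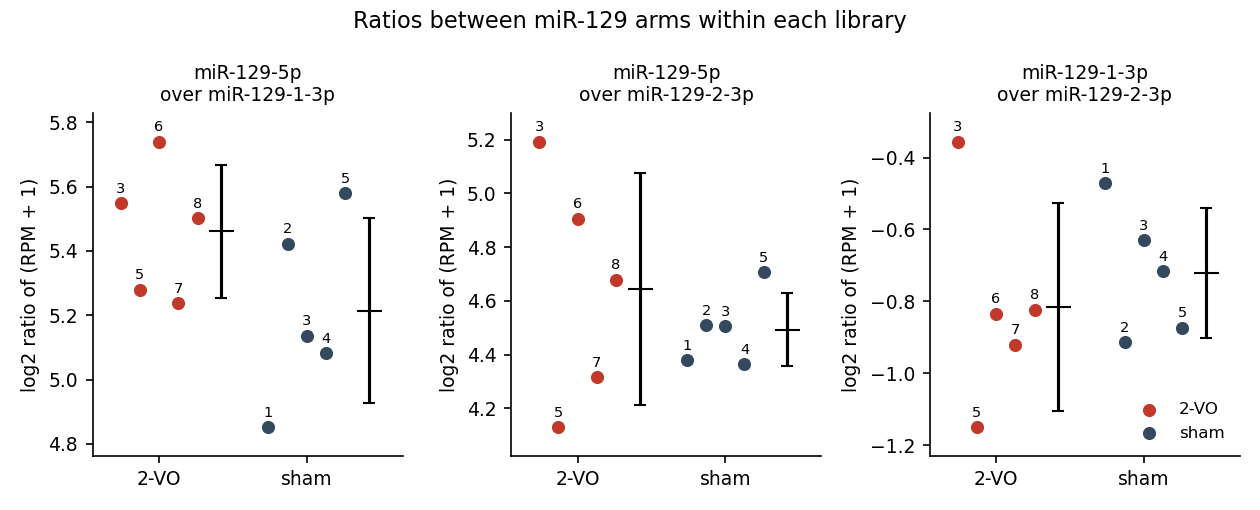
Log2 ratio of (RPM + 1) between members in each library, 2-VO left of sham, with replicate numbers and the mean ± SD (n = 5) as a bar. In the plots with miR-129-2-3p the 2-VO replicates 3 and 5 lie at opposite ends, and the groups overlap for each of the 3 ratios.

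The 3p values were also summed, with no test. A read counted under both 3p names would enter this sum in duplicate, and whether there were such reads cannot be told from the table. The sum was 288, 505, 369.7, 376 and 353 RPM in 2-VO replicates 3, 5, 6, 7 and 8, and 493, 388, 384, 445 and 374 RPM in sham replicates 1 to 5. Both extremes were again 2-VO libraries. miR-129-2-3p made up 63.8% ± 4.70 of the sum in 2-VO and 62.3% ± 2.97 in sham libraries (SD, n = 5). The 5p arm made up 94.0% ± 1.32 of the family's RPM in 2-VO and 93.3% ± 0.800 in sham libraries.

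The 5p arm of miR-129 outweighed each 3p arm, as the 5p arm did in 92 of the 159 ratios (57.9%). Over all libraries the mean log2 ratio was 5.34 against miR-129-1-3p, rank 37 of 159 from the highest, and 4.57 against miR-129-2-3p, rank 43. The median over the 159 was 1.17. Each miR-129 ratio sets the 5p reads of 2 hairpins against 1 3p arm, so its rank is not like for like with pairs from 1 hairpin. The next ratios above the first were those of let-7c-5p over let-7c-2-3p (5.36) and miR-9a (5.39), and the next below were those of miR-93 (5.30) and miR-150 (5.11). Around the second stood miR-139 (4.64) and miR-138-5p over miR-138-2-3p (4.64) above, and miR-99b (4.53) and let-7a-5p over let-7a-1-3p (4.42) below. As let-7c-2-3p and let-7a-1-3p have the same sequence and equal values, the let-7c and let-7a ratios share their 3p value. Differences of this size between neighbours were within the within-group SD of the miR-129 ratios, 0.251 and 0.320, which ranked 120 and 146 of 159 from the lowest.

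**Figure D4:**
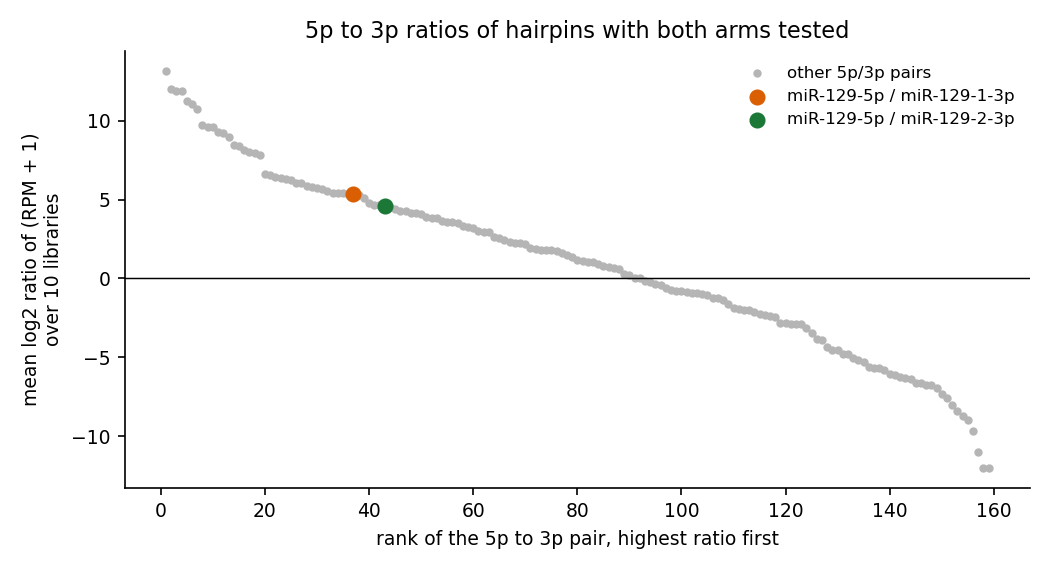
Mean log2 ratio, 5p arm over 3p arm, in the 10 libraries (vertical) for the 159 pairs tested, ranked from the highest (horizontal). The 2 miR-129 pairs stand at ranks 37 and 43, in the part where the 5p arm is the larger. In both, the 5p value sums the reads of 2 hairpins.

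In 12 families a shared arm and 2 numbered opposite arms were all kept, as for miR-129. The shared arm was the larger in 11 of them, with miR-219a as the exception. It was 15.2 times the summed numbered arms for miR-129, which ranked 8 of 12, between let-7a (21.5) and miR-125b (10.7). The ratio of miR-128, the highest, was 2248. By how unequal the numbered arms were, miR-129 ranked 3 from the most even, with a 1.72-fold difference in mean RPM, after miR-128 (1.01-fold) and miR-7a (1.25-fold) and before miR-138 (1.78-fold). The difference was 483-fold for miR-219a. Of these 12 pairs, miR-129 was the only pair with 1 mature sequence inside the other (11 pairs have a RefSeq sequence for both arms), and let-7a-1-3p repeats the sequence of let-7c-2-3p.

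In the test of 2-VO against sham over these 12 ratios 0 passed (0%, limma, smallest adjusted p = 0.14), with 2 at an unadjusted p under 0.05 (16.7%) and 6 below 0 (50%). Those 2, named after their values were seen, were miR-7a (difference 0.50) and miR-128 (0.23). On the log2 scale the neighbours of miR-129 were miR-128 (0.027) and miR-7a (0.36) above its mean of -0.77, and let-7f (-1.35) and miR-24 (-1.86) below. The within-group SD of the miR-129 ratio was 0.241, rank 9 of 12 from the lowest, beside a median of 0.183.

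**Figure D5:**
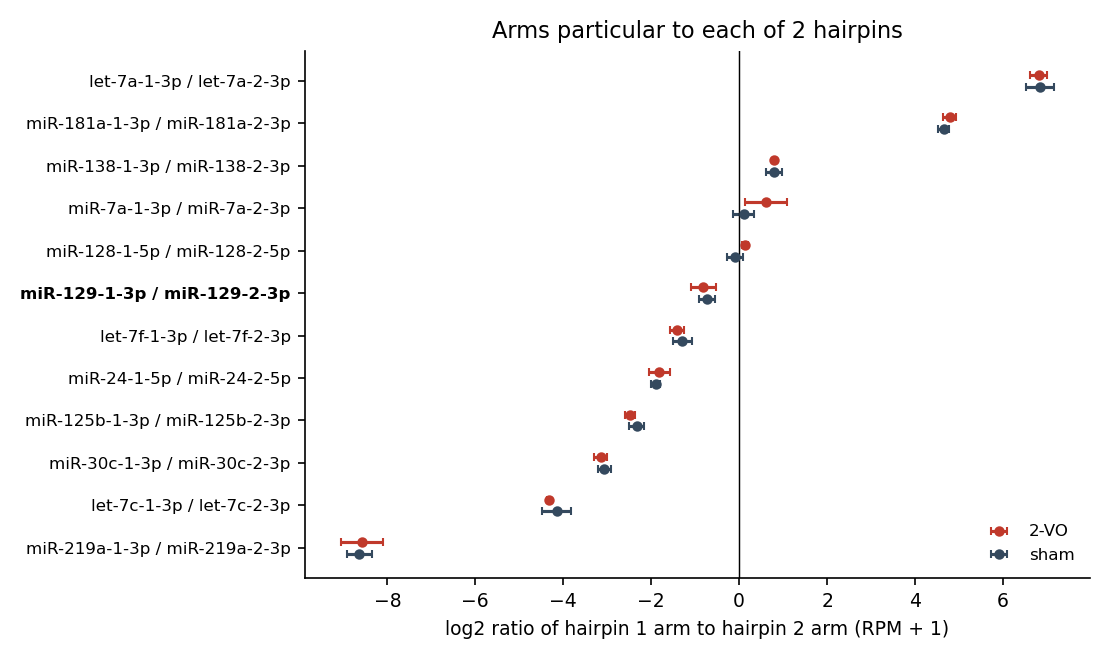
Log2 ratio of the arm of hairpin 1 to the same arm of hairpin 2 in the 12 families with both kept, as the mean ± SD (n = 5) for 2-VO (upper point) and sham (lower point). The miR-129 pair, in bold, lies at -0.82 in 2-VO and -0.72 in sham, and its bars overlap.

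The miRNAs most like each member were sought among 338 others of at least 10 RPM. The measure was the SD over the 10 libraries of the log2 ratio to the member. This SD is small where both miRNAs rise and fall together, and also where both merely vary little. For miR-129-5p the most alike were miR-30c-2-3p (SD 0.106), miR-145-3p (0.109), let-7i-3p (0.110), miR-340-3p (0.116) and let-7i-5p (0.120). For miR-129-1-3p they were miR-329-3p (0.173), miR-496-3p (0.178), miR-100-5p (0.193), miR-139-5p (0.199) and miR-30b-3p (0.200). For miR-129-2-3p they were miR-495 (0.147), miR-664-3p (0.161), miR-342-3p (0.170), miR-383-5p (0.176) and miR-667-3p (0.181). The 3 sets had 0 names in common, and 0 of the 15 passed in the comparison of the groups.

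The members were not among each other's closest. From miR-129-1-3p, miR-129-2-3p ranked 27 of 338 (SD 0.233) and miR-129-5p 90 (SD 0.270). From miR-129-2-3p, miR-129-1-3p ranked 29 and miR-129-5p 181 (SD 0.312). From miR-129-5p, both 3p arms came behind the median SD of 0.218, with miR-129-2-3p at rank 296. All the points of such a ratio come from the same 10 libraries, and the ranks describe these libraries.

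The other neuronal miRNAs of a list chosen for this tissue gave a setting for the members. Of the 20 neuron-enriched miRNAs 0 passed (all 474: 0%), 7 were above 0 and 13 below, with a median log2 fold change of -0.035 beside -0.051 over all miRNAs. The smallest p values in it belonged to miR-433-3p (-0.26, limma adjusted p = 0.76), at 603 ± 50.5 RPM in 2-VO and 722 ± 73.8 RPM in sham libraries, and miR-382-5p (-0.20). Of the 12 miRNAs of synaptic plasticity and scaling 0 passed, 5 were above 0 and 7 below (median -0.036), with miR-485-5p at -0.29 and the activity-induced miR-212-3p at 0.25. The members' values lay within the ranges of these lists, which ran from -0.26 to 0.25 and from -0.29 to 0.25. The lists share members, among them miR-212-3p, the highest of both.

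Markers of other cell types did not pass either, except that miR-10a-5p (1.37) and miR-1298 (-1.18) did so with the replicate block, and miR-448-3p (-1.20) with them. Of 8 astrocyte miRNAs 4 were above and 4 below 0 (median 0.0024, for example miR-24-3p, -0.21, and miR-23b-3p, 0.17). Of 7 oligodendrocyte miRNAs 5 were above and 2 below (median 0.12, with miR-23a-3p at 0.11 and miR-338-5p at -0.16). Of the 6 kept microglia and leukocyte miRNAs 4 were above and 2 below (median 0.064, with miR-142-3p at 0.18 and miR-342-3p at -0.16). The list of endothelium and vessel wall was split 3 and 3 (median 0.012, with miR-10a-5p at 0.96 and miR-126a-3p at -0.070). Of the red blood cell miRNAs 3 of 4 were above 0 (median 0.20, with miR-451-5p at 0.17 and miR-486 at -0.072). The lists share members, so they are not separate readouts of cell types. miR-144-3p, the highest of the oligodendrocyte list (0.22), is also on the red blood cell list. The astrocyte list shares miR-143-3p with the vessel wall list and miR-449a-5p with the choroid plexus list.

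The choroid plexus list had 6 of 7 members below 0 (median -0.33, with miR-204-5p at -0.57 and miR-1298 at -0.60), of which 0 passed. Its summed level was 1080 to 1404 RPM in 2-VO and 1081 to 3014 RPM in sham libraries. Any part of cell composition in the values of the miR-129 members was not tested.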

How the data were processed

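Small RNA was sequenced from the hippocampus, in 5 libraries of 2-VO and 5 of sham rats, with replicate numbers from the sample titles. The labels do not tie the libraries to separate animals. The p-values therefore describe only how these libraries vary, and that variation may be technical. RNA was isolated with Trizol and libraries were made with a NEBNext small RNA kit that includes a size selection on a gel, per the labels' protocols, which name no molecular identifiers. The authors deposited RPM values for 765 mature miRNAs, per the file headers. Of tools and genome, bcl2fastq, BWA and rn6 appear in the submitters' processing notes. For the annotation and for reads with several matches nothing is stated in the sources used here. Below 50 RPM 100% of the values above 0 were whole reads, within 0.05 reads, at 1 divisor per library. At these inferred divisors the smallest stood for 10 reads, so lower counts are taken to be listed as 0. Pairs of libraries of a group had chi-square values per degree of freedom of 95.2 or more, far above sampling noise.

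The 474 miRNAs whose mean reached 1 RPM were compared on the log2(RPM + 1) scale with limma 3.58.1 in R 4.3.3 (mean-variance trend, two-sided, no covariate, Benjamini-Hochberg adjustment, threshold 0.05). The ratio of a 5p to a 3p arm (159 pairs, a shared arm paired with each numbered opposite arm) and the ratio of the arms of hairpins 1 and 2 (12 pairs) were fitted in the same way. For ratios the trend therefore runs over the mean log2 ratio and not over the level, and for hairpins 1 and 2 it rests on only 12 pairs. The fits were tested on simulated data. The 95% intervals cover variation among libraries only. Sequences came from RefSeq (GRCr8, 690 of 765 names matched), and hairpins were folded with RNAfold 2.7.2.

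The members, lists and tests were chosen with earlier results of these data known. Named miRNAs were the members, the 5 most alike of at least 10 RPM for each, and the 2 of at least 10 RPM with the smallest p of each list. Those sharing a seed, those that pass, and the 2 next ratios on either side were also named. The naming of miR-211-5p came after its value was seen. Other settings changed the pseudocount, filter, scaling, library weights or block, or left out each library.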

Additional observations from a re-analysis of the deposited data

Results flagged for a closer look

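In 2-VO replicate 5 miR-129-1-3p stood at 157 RPM, apart from the other 2-VO libraries at 126 to 133 RPM, with a gap to the nearest of 0.787 of the group's range. Of 12 groups of 5 values (3 levels and 3 ratios in 2 groups) 1 was set apart in this way, where chance gives about 0.6. The value lies inside the sham range, and the same library had the highest miR-129-2-3p of all 10, at 349 RPM.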

How the results depend on the processing

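None of the 3 members or 3 ratios between members passed under any setting that was run. The number of miRNAs past the threshold was 0 with each library left out and under every other setting except the replicate block, with 8 (miR-10a-5p, miR-200a-3p, miR-200b-3p, miR-6215 and miR-6321 above 0, and miR-448-3p, miR-653-5p and miR-1298 below). At an unadjusted p under 0.05 there were 37 with TMM or median-of-ratios factors, against 24 as reported. The block fit pairs the libraries numbered 3 and 5 in both groups and leaves 1 residual degree of freedom. Their deviations from the group means had correlations of -0.058 and -0.18, and those of differently numbered libraries ran from -0.38 to 0.44. With 2 such pairs this cannot tell whether they share more than a number. With the block miR-129-5p stood at 0.053, miR-129-1-3p at -0.0034 and miR-129-2-3p at -0.0030. The log2 fold change of miR-129-2-3p turned to 0.0041 with array weights and to 0.015 without 2-VO replicate 3. That of miR-129-5p turned to -0.037 without 2-VO replicate 6 and to -0.0025 without sham replicate 3. With 1 library left out, the values ran from -0.037 to 0.097 for miR-129-5p, from -0.28 to -0.12 for miR-129-1-3p and from -0.26 to 0.015 for miR-129-2-3p. The count of 5p to 3p ratios past the threshold ran from 0 to 1 (miR-204 without 2-VO replicate 3, miR-23b without sham replicate 5). That of paralog ratios ran from 0 to 2 (miR-7a without 2-VO replicate 5 or 7, let-7c and miR-128 without sham replicate 5). These names were noted after their values were seen. Count tests had been planned and were left out, since at the inferred divisors no value above 0 is under 10 reads. Lower counts are taken to be listed as 0. Which hairpin a 5p read or a 3p read of 19 bases came from cannot be read from these values.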
